A study of Rattus norvegicus with 82 samples.

Results

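Tbr1, Cux2, Fezf2, Rorb, Lmo4, Neurod6, Etv1 and Rasgrf2 are genes used to mark the glutamatergic projection neurons of the cerebral cortex and their layers. Their RNA was followed across 7 regions of the rat brain, 3 treatments and 2 times of day. The genes were chosen by name, and every probe set that the array's annotation assigns to 1 of them was taken, which gave 19 probe sets of 31042 tested and 8 genes of 14217 named. Lmo4 and Etv1 had 5 probe sets each, Cux2, Rorb and Rasgrf2 had 2 each, and Tbr1, Fezf2 and Neurod6 had 1 each. For each gene the probe set with the highest mean signal leads below. Since probe sets differ in how well they bind, the level of 1 gene is never set against that of another.

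The series holds 82 arrays of total RNA. Of these, 80 fell into 41 groups by region (frontal cortex, amygdala, hippocampus, septum, hypothalamus, locus coeruleus and dorsal raphe), treatment (Sham, ADX and pADX) and time of day (AM and PM). Groups held 2 arrays apart from the Sham AM and ADX AM groups of frontal cortex, which held 1, and the remaining 2 arrays, of frontal cortex, carry no treatment. ADX commonly abbreviates adrenalectomy, which removes the glands that secrete corticosterone, and Sham stands for the control operation. What the p in pADX stands for, the strain, sex and age of the rats, and any hormone replacement were not stated in the labels. Frontal cortex therefore had 3 Sham, 3 ADX and 4 pADX arrays, hippocampus had 4 Sham, 4 ADX and 2 pADX arrays, and each other region had 4 of each treatment. Both hippocampal pADX arrays are labelled PM, and that time of day is in doubt. The labels name no animals, so p-values measure the spread between arrays, or between means of arrays, which may be technical.

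Projection neurons of the cortex use glutamate and send axons to other cortical areas or to targets below the cortex. They arise in order, deep layers first, and transcription factors such as Tbr1 and Fezf2 set the corticothalamic and subcerebral identities of deep layers while Cux2 and Rorb mark the upper layers. Many of these factors stay on in the adult, and related glutamatergic neurons of the hippocampus and of the cortex-like nuclei of the amygdala share several of them, whereas the hypothalamus and the brainstem nuclei hold neurons of other lineages.

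The promoters of Neurod6, Fezf2 and Tbr1 are shown because, outside the telencephalon (here frontal cortex, amygdala, hippocampus and septum), Tbr1 and Fezf2 stood at or near the floor and Neurod6 was lower by several log2 units. All 8 genes matched RefSeq's rat promoter sequences (assembly GRCr8), and the 250 bases before each gene's start are printed 5′ to 3′ on the gene's strand, with motif matches in capitals. The Neurod6 stretch is chr4:86180156-86180405 on the minus strand, that of Fezf2 chr15:15203943-15204192 on the plus strand and that of Tbr1 chr3:66759553-66759802 on the plus strand.
Neurod6: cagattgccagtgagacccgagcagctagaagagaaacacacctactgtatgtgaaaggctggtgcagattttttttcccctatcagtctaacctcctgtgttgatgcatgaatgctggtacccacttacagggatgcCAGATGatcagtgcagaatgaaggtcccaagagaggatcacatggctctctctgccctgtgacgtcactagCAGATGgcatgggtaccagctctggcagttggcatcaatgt
Fezf2: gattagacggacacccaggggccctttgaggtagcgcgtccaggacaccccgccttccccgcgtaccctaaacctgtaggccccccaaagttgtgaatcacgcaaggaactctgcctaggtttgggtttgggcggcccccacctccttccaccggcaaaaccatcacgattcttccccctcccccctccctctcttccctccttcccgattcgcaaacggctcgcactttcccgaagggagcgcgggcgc
Tbr1: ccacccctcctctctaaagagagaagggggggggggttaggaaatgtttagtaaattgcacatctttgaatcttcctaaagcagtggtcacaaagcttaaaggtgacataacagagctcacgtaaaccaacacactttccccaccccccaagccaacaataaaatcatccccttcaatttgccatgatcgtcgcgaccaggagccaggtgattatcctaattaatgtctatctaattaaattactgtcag
The capitals mark the E-box CAGATG, a letter pattern bound by neuronal basic helix-loop-helix factors, the family to which Neurod6 itself belongs. Neurod6 held it at 112 to 107 and at 41 to 36 bases before the start, and none of the other members held it. It was searched on both strands, as were the T-box motif GGTGTGA, which overlaps no other motif searched, and the glucocorticoid receptor motif AGAACA. Each of these 2 motifs is only a part of the full element. Among 33469 promoters of the same length, 14% held the E-box, 3.22% the T-box motif and 17.5% the glucocorticoid receptor motif. No member held the T-box motif, and 2 of 8 held the glucocorticoid receptor motif, Cux2 at 103 to 98 and Rasgrf2 at 147 to 142 bases before the start, both on the opposite strand. The share of G and C was 62.8% in the Fezf2 stretch, 50% in that of Neurod6 and 44% in that of Tbr1, against a median of 51.2% over all promoters. Such matches describe letters in this window and show neither binding nor regulation.

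Values below are log2 signals after quantile normalization, where 4 is the floor under which signals were not read. The deposited arrays were in more than 1 scaling state. In 45 arrays, among them all of frontal cortex, septum and amygdala, the trimmed mean was 150.04 to 150.05, and in the other 37, among them all of hypothalamus and hippocampus, it ran from 34.1 to 171. As deposited, the median shift of all probe sets against frontal cortex was -0.46 log2 units in hippocampus, -0.26 in hypothalamus and -0.15 in dorsal raphe, so the results below are relative to a normalization that removes such shifts. The ratio of 3′ to 5′ probe sets of beta-actin, a sign of RNA quality, ran from 1.73 to 2.95 in hippocampus, from 2.73 to 3.93 in frontal cortex and from 3.12 to 6.03 in dorsal raphe. Frontal cortex Sham PM replicate 2 had the lowest correlation with the mean of its region, 0.979. Region labels fitted their markers in part. The transporter gene Slc6a4 of serotonergic neurons stood at 10.66 in dorsal raphe but also at 9.61 in locus coeruleus, Dbh, which makes noradrenaline, stood at 8.34 in locus coeruleus and near the floor elsewhere, and the vasopressin gene Avp stood at 11.17 in hypothalamus and at 7.40 in amygdala.

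Neurod6, a basic helix-loop-helix factor of glutamatergic neurons of the telencephalon, was highest in hippocampus and frontal cortex and was lower by several log2 units outside the telencephalon. In hippocampus its signal ran from 10.33 to 10.93 with a median of 10.63, and in frontal cortex from 9.20 to 10.08 with a median of 9.90, so that no array of one region reached the other. In amygdala it ran from 8.42 to 9.35 with a median of 8.87. These 3 regions held most of the signal, and the septum followed close to the amygdala, with values from 7.70 to 9.22 and a median of 8.64. All arrays of hypothalamus (4.81 to 5.78), dorsal raphe (4.30 to 5.91) and locus coeruleus (5.20 to 6.14) lay below every array of the telencephalon. The step from septum to locus coeruleus, the next region down, was 2.92 log2 units (SE 0.13), or 7.59-fold (limma, adjusted p = 6.66e-29). Frontal cortex exceeded amygdala 1.86-fold (0.90, SE 0.14, adjusted p = 5.58e-07 in limma). Hippocampus exceeded frontal cortex by 0.79 (SE 0.15; limma, adjusted p = 1.76e-05) after normalization, but as deposited the difference was -0.081 (adjusted p = 0.819), with means of 10.06 and 10.12. The order at the top therefore changes with the scaling. Amygdala and septum (adjusted p = 0.0704), locus coeruleus and hypothalamus (0.0753), and hypothalamus and dorsal raphe (0.679) were neighbours that did not pass. In tissue pieces, fewer cells of a type and less RNA per cell cannot be told apart, here or for any gene below.

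Tbr1, a T-box factor of early-born, deep-layer glutamatergic neurons, was read above the floor in the telencephalon alone. All 36 arrays of hypothalamus, dorsal raphe and locus coeruleus stood at the floor. In frontal cortex the signal ran from 6.15 to 7.22 with a median of 6.50, the highest value being that of Sham PM replicate 2. The amygdala ran from 4.78 to 6.49 with a median of 5.53 and overlapped the frontal cortex range. Hippocampus (4.58 to 5.65, median 5.12) and septum (4.17 to 5.36, median 4.83) lay below all frontal cortex arrays. Frontal cortex exceeded amygdala 1.99-fold (0.99, SE 0.12; limma, adjusted p = 7.2e-10), and 0.93 without Sham PM replicate 2. With the Sham arrays alone the difference was 0.76 and missed the threshold (adjusted p = 0.0505). Frontal cortex exceeded hippocampus 2.70-fold (1.43, SE 0.13) and septum 3.20-fold (1.68, SE 0.12). Amygdala exceeded hippocampus by 0.44 (adjusted p = 0.0032 in limma), while hippocampus and septum did not pass (0.25, 95% interval 0.0034 to 0.49, adjusted p = 0.147). Septum exceeded the hypothalamus at least 1.81-fold (0.85, adjusted p = 5.1e-09 in limma).

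Fezf2, a zinc finger factor required for subcerebral projection neurons of deep layers, gave the flattest profile over the telencephalon of the genes that were near the floor elsewhere. Frontal cortex ran from 7.49 to 8.19 with a median of 7.81. Hippocampus (6.92 to 7.46, median 7.28) and amygdala (7.0 to 7.44, median 7.17) shared a range below all frontal cortex arrays. Septum ran from 6.45 to 7.46 with a median of 6.78. Outside the telencephalon, 7 of 12 hypothalamus arrays, 11 of 12 dorsal raphe arrays and 12 of 12 locus coeruleus arrays were at the floor, and the highest value was 4.63. Frontal cortex exceeded hippocampus 1.51-fold (0.59, SE 0.09, adjusted p = 8.08e-08), amygdala 1.56-fold (0.64, SE 0.08, adjusted p = 3.26e-09) and septum 1.96-fold (0.97, SE 0.08), all in limma. Hippocampus and amygdala did not pass (0.05, 95% interval -0.12 to 0.21, adjusted p = 0.800). Septum exceeded hypothalamus at least 6.65-fold (2.73, SE 0.08).

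**Figure D1:**
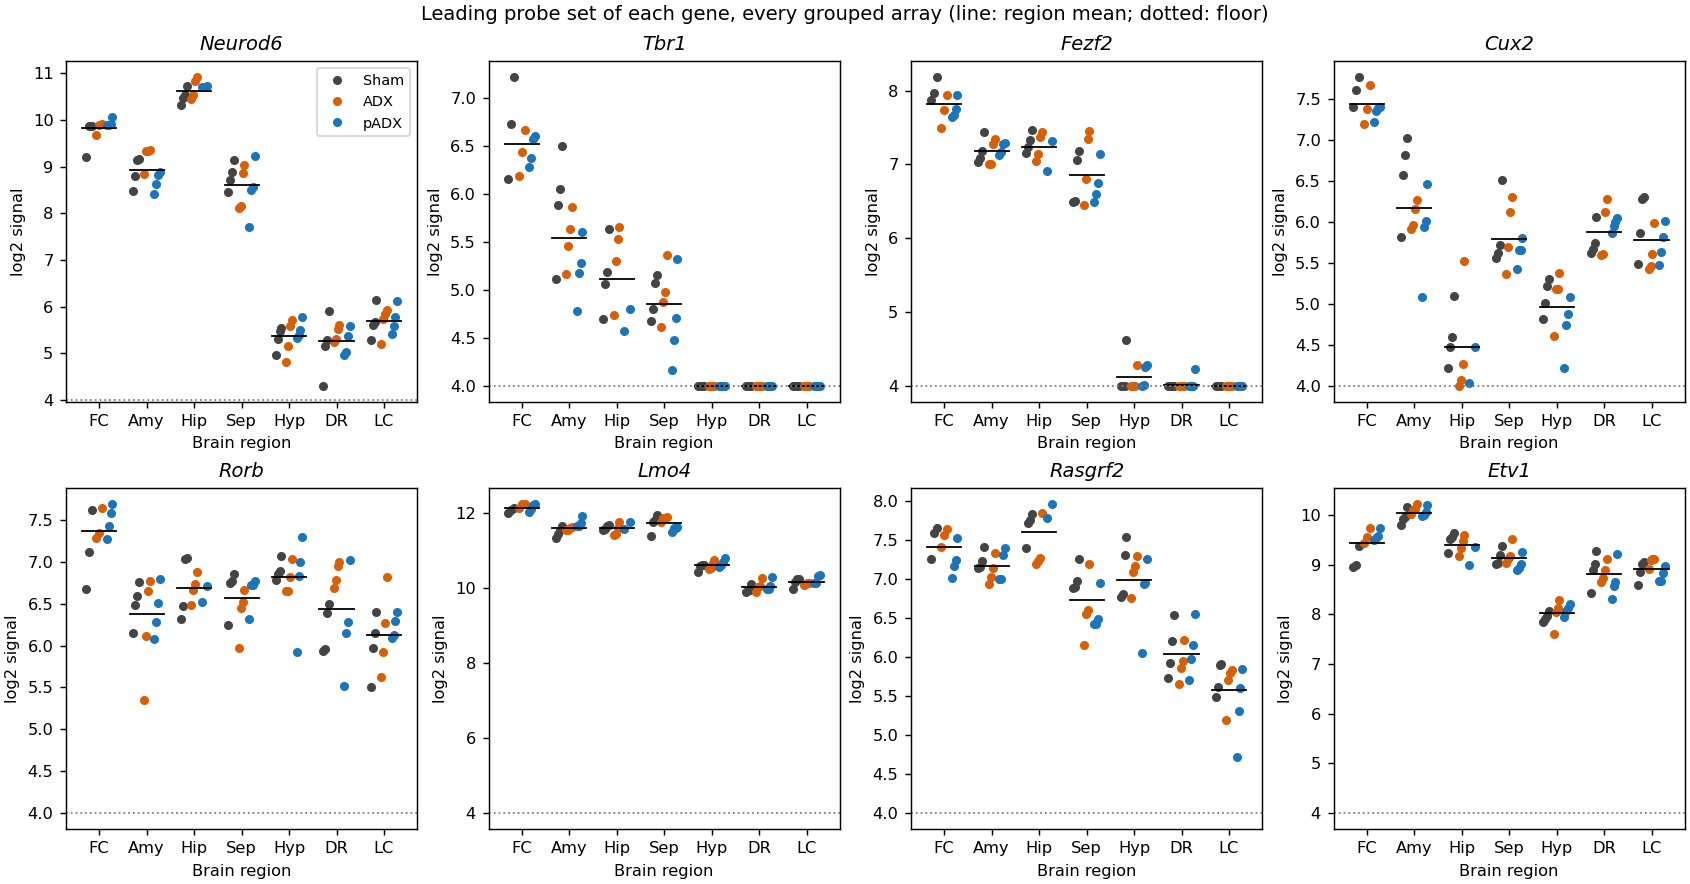
Log2 signal of the leading probe set of each gene (vertical axis) in every grouped array by brain region (horizontal axis: FC frontal cortex, Amy amygdala, Hip hippocampus, Sep septum, Hyp hypothalamus, DR dorsal raphe, LC locus coeruleus), with points coloured by treatment, the region mean as a bar and the floor of 4 as a line. Neurod6, Tbr1 and Fezf2 drop between the first 4 regions and the last 3, Cux2 is lowest in hippocampus with a mean of 4.48, and Etv1 is highest in amygdala with a mean of 10.04.

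Cux2, a homeodomain factor of upper-layer neurons that interneurons also use, was the member with the largest gap between frontal cortex and hippocampus. In frontal cortex it ran from 7.19 to 7.77 with a median of 7.39, above every array of the other regions. In hippocampus it ran from the floor, where 1 of 10 arrays stood, to 5.53, with a median of 4.37. Amygdala ran from 5.08 to 7.02 with a median of 6.08, and dorsal raphe (5.59 to 6.28), septum (5.37 to 6.51) and locus coeruleus (5.43 to 6.30) overlapped it. The hypothalamus was lower, from 4.22 to 5.37. The means of frontal cortex and hippocampus differed by 2.96, or at least 7.76-fold, and the fitted difference was 3.05 (SE 0.15; limma, adjusted p = 1.06e-26). Frontal cortex exceeded amygdala 2.51-fold (1.33, SE 0.14, adjusted p = 4.69e-12) and septum 3.27-fold (1.71, SE 0.14), both in limma. The neighbours amygdala and dorsal raphe (adjusted p = 0.0792), dorsal raphe and septum (0.699), and septum and locus coeruleus (1) did not pass. The other Cux2 probe set gave differences from hippocampus of 2.04 and from amygdala of 1.05 (SE 0.17 and 0.16).

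Rorb, an orphan nuclear receptor of layer 4 neurons, varied little over the brain. Frontal cortex ran from 6.67 to 7.69 with a median of 7.38, the lowest value being Sham PM replicate 2. The ranges of the other regions all overlapped with that of frontal cortex, from hypothalamus (5.92 to 7.29, median 6.84) to locus coeruleus (5.50 to 6.82, median 6.13). Without Sham PM replicate 2, frontal cortex overlapped hypothalamus alone. Its ADX arrays started at 7.28 and its pADX arrays at 7.27. Hippocampus had a median of 6.68, septum of 6.69, amygdala of 6.50 and dorsal raphe of 6.44. Frontal cortex exceeded hypothalamus 1.48-fold (0.56, SE 0.16; limma, adjusted p = 0.0025), but with Sham arrays alone the difference was 0.25 (adjusted p = 0.569). Without Sham PM replicate 2 it was 0.64 (limma, adjusted p = 0.00067). Frontal cortex exceeded amygdala 2.0-fold (1.0, SE 0.16, adjusted p = 7.3e-07) and hippocampus 1.61-fold (0.68, SE 0.17, adjusted p = 8.9e-04) in limma. Below frontal cortex no neighbouring regions passed (adjusted p from 0.209 to 0.907), and 10 of the 21 pairs of regions passed in all, the fewest of the 8 genes. The other probe set also put frontal cortex highest, with a mean of 5.96 (SD 0.30) against 5.23 (SD 0.36) in amygdala.

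Lmo4, a LIM-only adaptor protein of callosal and upper-layer neurons that many other brain cells use, was strongly read in every region. Frontal cortex ran from 12.002 to 12.26 with a median of 12.14, above all arrays of the other regions. Septum (11.40 to 11.95), amygdala (11.33 to 11.93) and hippocampus (11.42 to 11.78) shared a range, with medians of 11.76, 11.63 and 11.60. Hypothalamus ran from 10.42 to 10.81, locus coeruleus from 9.97 to 10.37 and dorsal raphe from 9.90 to 10.30. The telencephalon thus stood above the other regions without overlap. Frontal cortex exceeded septum 1.32-fold (0.40, SE 0.05, adjusted p = 2.59e-10), amygdala 1.43-fold (0.52, SE 0.05, adjusted p = 8.96e-14) and hippocampus 1.44-fold (0.53, SE 0.05) in limma. Amygdala and hippocampus did not pass (0.01, 95% interval -0.09 to 0.10), nor did septum and amygdala (adjusted p = 0.0511) or locus coeruleus and dorsal raphe (0.0773). The 4 dimmer probe sets gave larger differences between frontal cortex and amygdala, from 0.83 to 1.05, all called. Of these 4, 2 had many arrays at the floor, 20 and 36 of 80.

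Rasgrf2, an exchange factor for Ras and Rac that marks upper-layer neurons, had overlapping levels in hippocampus, frontal cortex and amygdala. Hippocampus ran from 7.19 to 7.96 with a median of 7.74, frontal cortex from 7.01 to 7.65 with a median of 7.47, and amygdala from 6.93 to 7.41 with a median of 7.14. The 3 ranges overlapped. Hypothalamus (6.06 to 7.54) and septum (6.15 to 7.25) overlapped them too, while dorsal raphe (5.66 to 6.55) and locus coeruleus (4.72 to 5.91) lay lower. Hippocampus minus frontal cortex was 0.15 (95% interval -0.09 to 0.39; limma, adjusted p = 0.406), and as deposited it was -0.64 (adjusted p = 0.000211), so that frontal cortex was then highest. Frontal cortex minus amygdala was 0.27 (95% interval 0.03 to 0.50; limma, adjusted p = 0.0867). Septum exceeded dorsal raphe 1.62-fold (0.69, SE 0.11, adjusted p = 2.42e-07) and dorsal raphe exceeded locus coeruleus 1.38-fold (0.46, SE 0.11, adjusted p = 0.00403), both in limma. The other Rasgrf2 probe set stood at the floor in 72 of 80 arrays and says little of the gene.

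Etv1, an ETS factor of layer 5 projection neurons, was the only member whose leading probe set was highest in amygdala. There it ran from 9.79 to 10.22 with a median of 10.03, above every array of the other regions. Frontal cortex ran from 8.95 to 9.74 with a median of 9.51 and hippocampus from 9.0 to 9.62 with a median of 9.42, over the same range. Septum (8.90 to 9.52), locus coeruleus (8.58 to 9.11) and dorsal raphe (8.32 to 9.27) followed, and hypothalamus (7.60 to 8.28) lay below all of them. Amygdala exceeded frontal cortex 1.51-fold (0.59, SE 0.09, adjusted p = 5.82e-07) and hippocampus 1.58-fold (0.66, SE 0.09, adjusted p = 3.56e-08) in limma. Frontal cortex minus hippocampus was 0.07 (95% interval -0.13 to 0.27, adjusted p = 0.697). All 5 probe sets put amygdala above frontal cortex, by 0.51 to 0.83, and each passed. Markers of neighbouring tissue were also higher in amygdala. The summed level of the choroid plexus list, all 4 of 4 genes measured, ran from 8.05 to 12.92 in amygdala against 6.21 to 8.03 in frontal cortex, and that of the hypothalamus list, 6 of 7 genes measured, from 7.39 to 11.04 against 6.59 to 6.95. The part of these tissues in the amygdala values was not tested.

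**Figure D2:**
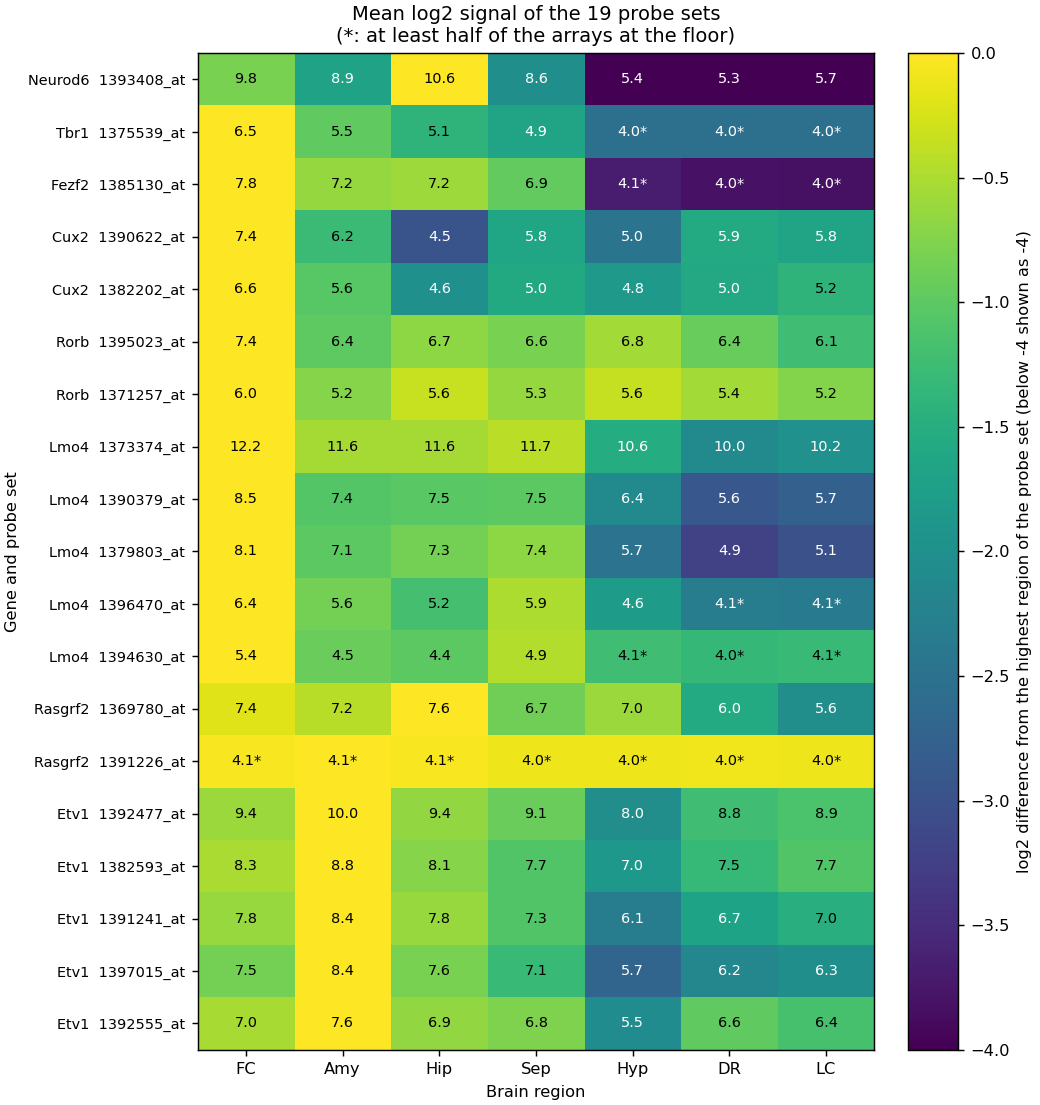
Mean log2 signal of each of the 19 member probe sets (rows) in each brain region (columns, FC frontal cortex, Amy amygdala, Hip hippocampus, Sep septum, Hyp hypothalamus, DR dorsal raphe, LC locus coeruleus). The colour gives the log2 difference from the highest region of the probe set, on a scale limited at -4. The 5 probe sets of Etv1 are highest in amygdala, and all 5 of Lmo4 are highest in frontal cortex.

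The 8 genes were then compared as a group with all probe sets. By the moderated F test over the 7 regions, 18 of 19 member probe sets differed between regions, where 65.3% of all probe sets did. The exception was the dim Rasgrf2 probe set (adjusted p = 0.219 in limma). Of the 168 comparisons of the leading probe sets over the 21 pairs of regions, 132 passed, against 33.9% of such comparisons over all probe sets. Among frontal cortex, septum and amygdala, which share a scale as deposited, 20 of 24 passed, and 13 of 24 with the Sham arrays alone. Over all 31042 probe sets, 5846 were higher and 5696 lower in frontal cortex than in septum, and 3933 and 3931 than in amygdala. The share of all probe sets for septum against amygdala, and for the Sham arrays alone, was not counted. Of the leading probe sets, 5 were highest in frontal cortex, 2 in hippocampus (Neurod6 and Rasgrf2, both highest in frontal cortex as deposited) and 1 in amygdala. Of all probe sets that passed the F test, 19.5% were highest in frontal cortex, 12.9% in hippocampus and 9.90% in amygdala. A mean in frontal cortex at least 1 log2 unit above every other region was found for 3 member probe sets, both of Cux2 and 1 of Lmo4, against 0.254% of all probe sets.

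The gradient ran from frontal cortex downwards for most members. Against septum, 17 of 19 member probe sets were higher in frontal cortex and none lower, where 18.8% of all probe sets were higher, and all 8 leading ones passed, with a median difference of 0.89. Against amygdala, 12 were higher and 5 lower, the 5 being those of Etv1, where 12.7% of all were higher, and the median of the leading ones was 0.77. Against hippocampus, 12 were higher and 1, Neurod6, was lower, where 15.1% of all were higher, and the median was 0.56. Between amygdala and hippocampus the members were divided, with 9 probe sets higher in amygdala and 3 lower, where 13.9% of all were higher. Of the leading ones 3 were higher in amygdala and 2 lower, with a median of -0.02. The median over all probe sets was 0 in each of these comparisons. The septum arrays also carried markers of the neighbouring striatum, with Drd1 at 8.69 and Adora2a at 6.93, and the summed level of the striatum and lateral septum list, 6 of 7 genes measured and none at the floor throughout, ran from 10.17 to 11.95 against 9.0 to 9.69 in frontal cortex. Its part in the differences was not tested.

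Other genes of the same neurons gave a less uniform picture. As background to this list and those that follow, 3933 of all 31042 probe sets were higher in frontal cortex than in amygdala and 3931 lower. Against hippocampus, 4697 were higher and 4602 lower. Of the upper-layer list, 10 of 13 genes were measured. Frontal cortex was higher than amygdala for 5 and lower for 1, and higher than hippocampus for 6 and lower for 1. Lamp5, a membrane protein of dendrites, exceeded amygdala by 1.79 and hippocampus by 2.14, Mef2c, an activity-regulated factor, by 0.72 and 1.80, and Inhba, an activin subunit, by 1.35 and 0.69. Calb1, a calcium buffer that other neurons also hold, was the exception in amygdala, with frontal cortex lower by a log2 difference of -0.45. The medians over this list were 0.45 and 0.47.

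The deep-layer list was divided. Of 19 genes measured, 5 were higher and 6 lower in frontal cortex than in amygdala, and 7 were higher and 4 lower than in hippocampus, with medians of 0.01 and 0.10. Bcl11b, which acts downstream of Fezf2 in subcerebral neurons and is also used in hippocampus and striatum, was lower in frontal cortex (-0.87 against amygdala and -1.38 against hippocampus), as was the basic helix-loop-helix factor Bhlhe22 (-1.45 and -1.80). Rprm, a layer 6 marker, exceeded hippocampus by 1.69, and its difference from amygdala was 0.23 (adjusted p = 0.311 in limma). Ccn2, a matrix protein of subplate-derived neurons, was lower than in amygdala (-1.06) and higher than in hippocampus (0.60). Nr4a2, an orphan receptor of the same neurons and of the claustrum, was lower than in both (-0.77 and -0.48).

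Of 11 family relatives of the members measured, 3 were higher and 3 lower in frontal cortex than in amygdala, and 3 were higher and 4 lower than in hippocampus. Etv5, the relative of Etv1, was higher in frontal cortex than in amygdala by 0.98 and than in hippocampus by 1.0, where the differences of Etv1 were -0.59 and 0.07. Neurod1 was lower in frontal cortex than in amygdala (-1.01) and hippocampus (-1.61), and Neurod2 was lower than in hippocampus (-0.48) with a difference of -0.00 from amygdala (adjusted p = 1 in limma). Lmo3 was lower than in amygdala (-0.71), and Rora, the relative of Rorb, was higher than in amygdala (0.65).

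Markers of glutamatergic forebrain neurons set the background for these levels. Slc17a7, the vesicular glutamate transporter of cortical neurons, stood at 9.84 in frontal cortex (SD 0.22, n = 10), 9.77 in amygdala (SD 0.38, n = 12) and 9.67 in hippocampus (SD 0.28, n = 10), at 8.42 in septum and between 4.05 and 4.95 in the other 3 regions. Its difference between frontal cortex and amygdala was 0.08 (adjusted p = 0.823 in limma). Of the 10 genes of that list, 4 were higher and 1 lower in frontal cortex than in amygdala. Nrgn, a calmodulin-binding protein of dendrites, exceeded amygdala by 0.77, and Emx1, a homeodomain factor of the dorsal forebrain, by 1.07. Slc17a6, the transporter of subcortical glutamate neurons, was lower in frontal cortex (-1.99).

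Genes with the profile most like each member over the 80 arrays were taken from 16244 probe sets with a symbol. For Neurod6 they were Chn1 (r = 0.97), Cnksr2 (0.97) and Epha4 (0.97), for Tbr1 Lingo1 (0.94), Stx1a (0.94) and LOC103692984 (0.94), and for Fezf2 Dclk1 (0.99), Plk2 (0.99) and Baiap2 (0.98). For Lmo4 they were Mef2c, Fam81a and Mmd (0.97 each), for Etv1 Hace1, Nkain2 and Reps2 (0.89 each) and for Rasgrf2 Gabra5 (0.88), Wnt4 (0.86) and Pcdh20 (0.84). For Cux2 they were Garnl3 (0.88), Fhod3 (0.86) and Numb (0.85). Rorb had no close match, with Dpp4 at 0.61, Arpp19 at 0.61 and Cop1 at 0.60. The points share arrays and regions, and once the region means were removed the same correlations fell to between 0.02 and 0.55, so the likeness describes mainly the order of regions.

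The treatment question was whether ADX or pADX changed these genes against Sham. For the comparison across regions, the 5 complete regions (amygdala, septum, hypothalamus, locus coeruleus and dorsal raphe) were averaged into 12 units, 4 per treatment. After quantile normalization no member probe set passed in any of these comparisons by limma. For ADX against Sham 0 of 19 passed, where 0.132% of all probe sets did, and 3 had an unadjusted p below 0.05. For pADX against Sham it was 0 of 19 (0.00644% of all) and 3, for ADX against pADX 0 of 19 (0.0483%) and 2, and for PM against AM 0 of 19 (0.00966%) and 2. In the same fit Sult1a1, a sulfotransferase gene that glucocorticoids induce, fell by 2.06 with ADX (adjusted p = 5.54e-04), the only 1 of 5 genes listed as glucocorticoid-induced to pass. With the values as deposited, 9 of 19 member probe sets passed for ADX against Sham and 1 of 19 for ADX against pADX. The median of all probe sets was then -0.21 and -0.12, and that of the leading ones -0.23 and -0.06. The share of all probe sets that passed as deposited was not counted, so these counts have no background.

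Most 95% intervals of the leading probe sets lay close to 0. For ADX against Sham, Fezf2 differed by 0.02 (interval -0.15 to 0.19), Rorb by 0.03 (-0.08 to 0.15), Lmo4 by 0.07 (-0.03 to 0.17) and Neurod6 by 0.06 (-0.19 to 0.32). Fezf2 stood at the floor in 7 of 12 hypothalamus, 11 of 12 dorsal raphe and 12 of 12 locus coeruleus arrays. Those regions could add little to its difference, and frontal cortex and hippocampus are not among the regions averaged. Wider intervals were those of Cux2, with -0.14 (-0.40 to 0.12), and Rasgrf2, with -0.16 (-0.53 to 0.20). The 8 differences had a median of 0.03, with 5 above and 3 below 0, but as deposited 1 was above and 7 below, against that median of -0.21.

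The lowest unadjusted p-values belonged to Tbr1, Etv1 and Lmo4. The Sham units of Tbr1 lay between 4.45 and 4.64, and the pADX units between 4.27 and 4.46. These ranges met only at their ends, with a difference of -0.19 (95% interval -0.32 to -0.05; limma, adjusted p = 0.513), and 3 of the 5 regions averaged held Tbr1 at the floor. The units of Etv1 ran from 9.02 to 9.09 in ADX and from 8.86 to 9.01 in pADX, without overlap, a difference of 0.12 (0.03 to 0.20; adjusted p = 0.444). For Etv1, ADX minus Sham was 0.08 (0.00086 to 0.17; adjusted p = 0.548). The other Etv1 probe sets gave -0.0046 to 0.12 for ADX minus pADX and -0.0022 to 0.15 for ADX minus Sham. Lmo4 ran from 10.85 to 10.94 at PM and from 10.60 to 10.85 at AM, a difference of 0.11 (0.03 to 0.19; adjusted p = 0.323). Its other probe sets gave differences from -0.02 to 0.04. Cux2 was lower in pADX than in Sham by a difference of -0.26 (-0.52 to -0.00062; adjusted p = 0.648), with units of 5.41 to 5.66 against 5.65 to 5.99. The other Cux2 probe set gave -0.19 (-0.39 to 0.0058). Rorb had a PM minus AM difference of -0.11 (-0.20 to -0.01; adjusted p = 0.423), but its other probe set gave the opposite sign, 0.12 (-0.09 to 0.34). None of these passed the adjusted threshold of 0.05.

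Fitted within each of the 7 regions after the same normalization, the treatments gave no call either. For ADX against Sham 0 of 133 member comparisons passed (0.011% over all probe sets) and 5 had an unadjusted p below 0.05. For pADX against Sham 0 of 133 passed (0.00322%) and 7 were below 0.05, and for PM against AM 0 of 133 passed (0.00184%) and 11 were below 0.05. As deposited, 4 of 133 passed for ADX against Sham, and the share of all probe sets was not counted there. The interaction of treatment and region passed for 0 of 19 member probe sets, where 2.07% of all passed. As deposited it passed for 1 of 19, with the share of all not counted. The lowest adjusted p among the members was 0.125, for the leading probe set of Lmo4, and the 2 probe sets with an unadjusted p below 0.05 besides it were another of Lmo4 and the dim one of Rasgrf2.

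Etv1 in frontal cortex separated the treatments most clearly. Its Sham arrays gave 8.95, 8.99 and 9.37, its ADX arrays 9.44, 9.55 and 9.74, and its pADX arrays 9.49, 9.52, 9.57 and 9.74. All Sham arrays were below all others. ADX minus Sham was 0.47 (95% interval 0.16 to 0.78; limma, adjusted p = 0.307) and pADX minus Sham 0.49 (0.20 to 0.78; adjusted p = 0.318). The other 4 Etv1 probe sets gave differences of the same sign, from 0.11 to 0.92, and none passed. Of the 3 Sham arrays, 1 is the replicate that stands apart from its region.

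Other regional differences were also short of the threshold. The Sham arrays of amygdala held Tbr1 at 5.11 to 6.49 and the pADX arrays at 4.78 to 5.61, with a difference of -0.67 (95% interval -1.34 to -0.00; adjusted p = 0.662 in limma). Lmo4 there differed by 0.25 (0.05 to 0.44; adjusted p = 0.560) between pADX and Sham, and Rorb by -0.60 (-0.96 to -0.24; adjusted p = 0.985) between PM and AM. In septum PM minus AM was 0.25 (0.10 to 0.40; adjusted p = 0.403) for Etv1 and 0.42 (0.02 to 0.81; adjusted p = 0.602) for Fezf2. Lmo4 was higher at PM in dorsal raphe (0.17, 0.04 to 0.29; adjusted p = 0.315) and in locus coeruleus (0.14, 0.05 to 0.23; adjusted p = 0.628). Of the other genes in the layer lists, the glutamatergic list and the family list, none passed in any treatment or time comparison across regions.

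**Figure D3:**
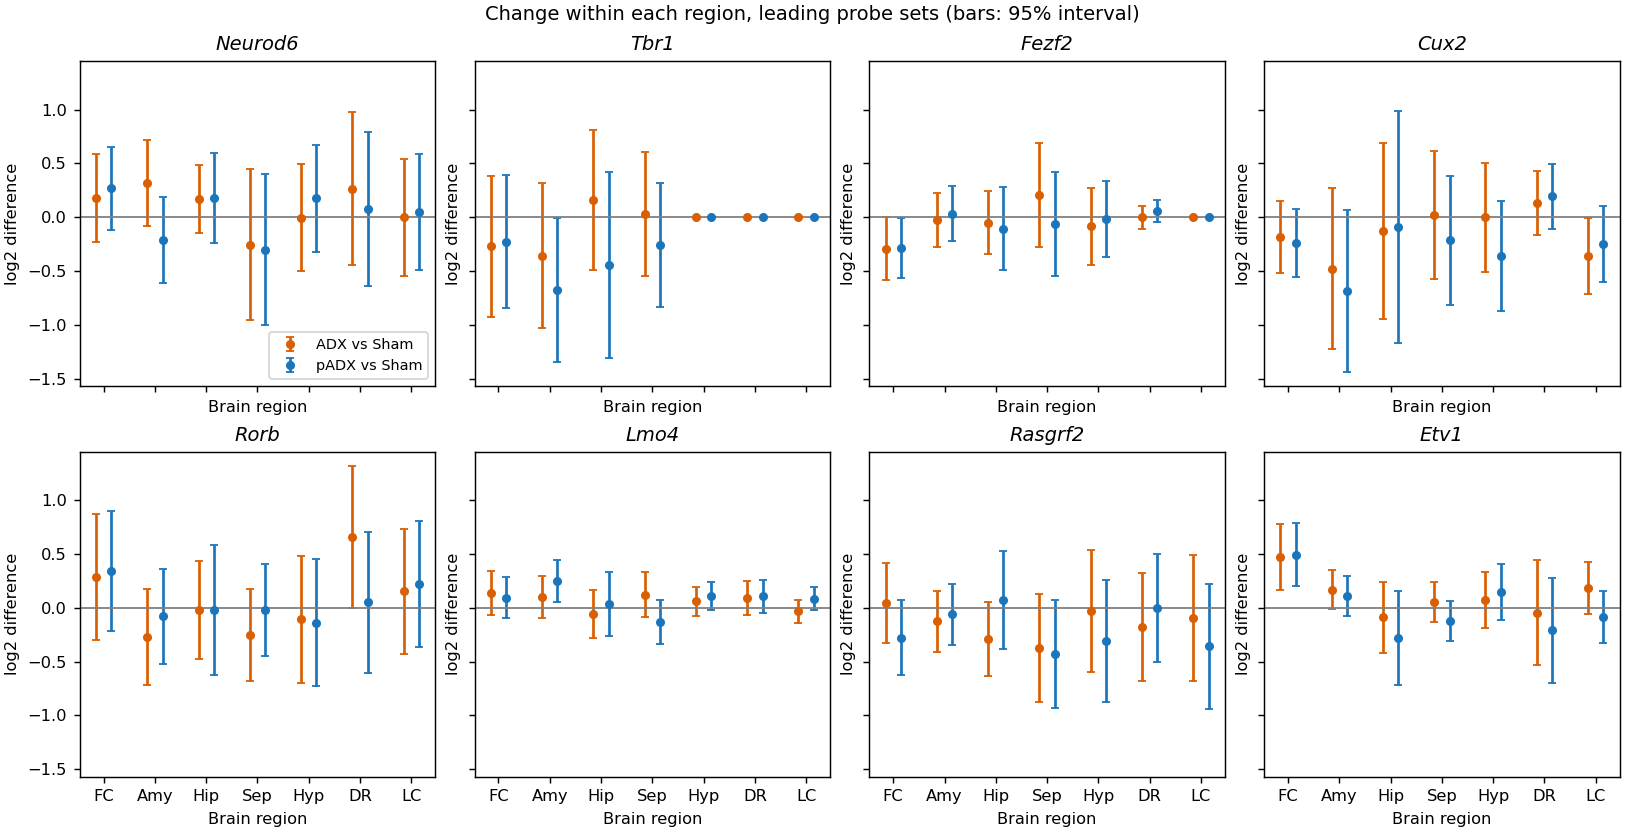
Difference in log2 signal from Sham (vertical axis) for ADX and pADX in each brain region (horizontal axis, FC frontal cortex, Amy amygdala, Hip hippocampus, Sep septum, Hyp hypothalamus, DR dorsal raphe, LC locus coeruleus), for the leading probe set of each gene, with bars for the 95% interval. Etv1 in frontal cortex has both intervals above 0, at 0.47 and 0.49, and no comparison passed after adjustment.

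Whether members varied together among the arrays of 1 region was examined in frontal cortex, septum, amygdala and hippocampus, a choice made after seeing the data. Slc17a7 was included as a measure of glutamatergic neurons, which gave 144 relations, and 6 passed after Benjamini-Hochberg adjustment of permutation p-values (two-sided, 100000 permutations). In amygdala, over 12 arrays, Etv1 fell as Slc17a7 rose (r = -0.92, permutation p = 2e-05, adjusted 0.00288; rho = -0.92, p = 0.00011, adjusted 0.0108), and r was -0.91 without the 2 arrays farthest from the median. Cux2 rose with Slc17a7 there (r = 0.85, permutation p = 0.00029, adjusted 0.0202; rho = 0.83, p = 0.0018, adjusted 0.0648), with r = 0.77 without 2 arrays, and Cux2 and Etv1 ran opposite (r = -0.83, permutation p = 0.00075, adjusted 0.0216; rho = -0.91, p = 0.00015, adjusted 0.0108), with r = -0.85 without 2 arrays. With the leading probe sets, the amygdala arrays thus ran from high Slc17a7 and Cux2 to high Etv1. The permutations ignored treatment and time of day. In the Sham arrays there Slc17a7 stood at 10.31, 10.32, 10.23 and 9.43, and in the other arrays at 9.22 to 9.95. Mean Cux2 was 6.55 in Sham, 6.08 in ADX and 5.87 in pADX, and mean Etv1 was 9.95, 10.12 and 10.06. The part of treatment in these relations was not tested. Within arrays numbered 1 and arrays numbered 2, 6 each, r was -0.99 and -0.89 for Etv1 with Slc17a7, 0.90 and 0.78 for Cux2 with Slc17a7, and -0.87 and -0.90 for Cux2 with Etv1. Both sets are parts of the 12 arrays over which the relations were picked, so these values are no separate support. With other probe sets r ran from -0.12 to -0.90, from 0.01 to 0.50 and from -0.78 to 0.06 for the same 3 pairs.

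In septum Fezf2 and Etv1 rose together over 12 arrays (r = 0.83, permutation p = 0.00056, adjusted 0.0202; rho = 0.78, p = 0.00398, adjusted 0.109), with r = 0.89 without the 2 farthest arrays and 0.43 to 0.74 with the other Etv1 probe sets. In frontal cortex Tbr1 and Rorb ran opposite over 10 arrays (r = -0.93, permutation p = 0.0005, adjusted 0.0202; rho = -0.90, p = 0.00089, adjusted 0.0427), with r = -0.80 without the 2 farthest arrays and -0.82 without Sham PM replicate 2 (adjusted p = 0.223). Cux2 and Rorb also ran opposite there (r = -0.83, permutation p = 0.00208, adjusted 0.0499; rho = -0.78, p = 0.0107, adjusted 0.172), with r = -0.78 without the 2 farthest arrays and -0.71 without Sham PM replicate 2 (adjusted p = 0.363). Within arrays numbered 1 (n = 4) and 2 (n = 6), r was -0.98 and -0.94 for Tbr1 with Rorb but 0.22 and -0.89 for Cux2 with Rorb. Here too the sets are parts of the 10 arrays over which the relations were picked. With other probe sets the relations were weaker, with r = -0.46 for Tbr1 with Rorb and from -0.43 to -0.11 for Cux2 with Rorb. The frontal cortex relations lost their call without that array, and the latter differed in sign between the sets of arrays. When each array was scaled to 1 common median in place of quantile normalization, 5 of the 6 relations missed the threshold and Cux2 with Slc17a7 in amygdala kept it (r = 0.88).

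**Figure D4:**
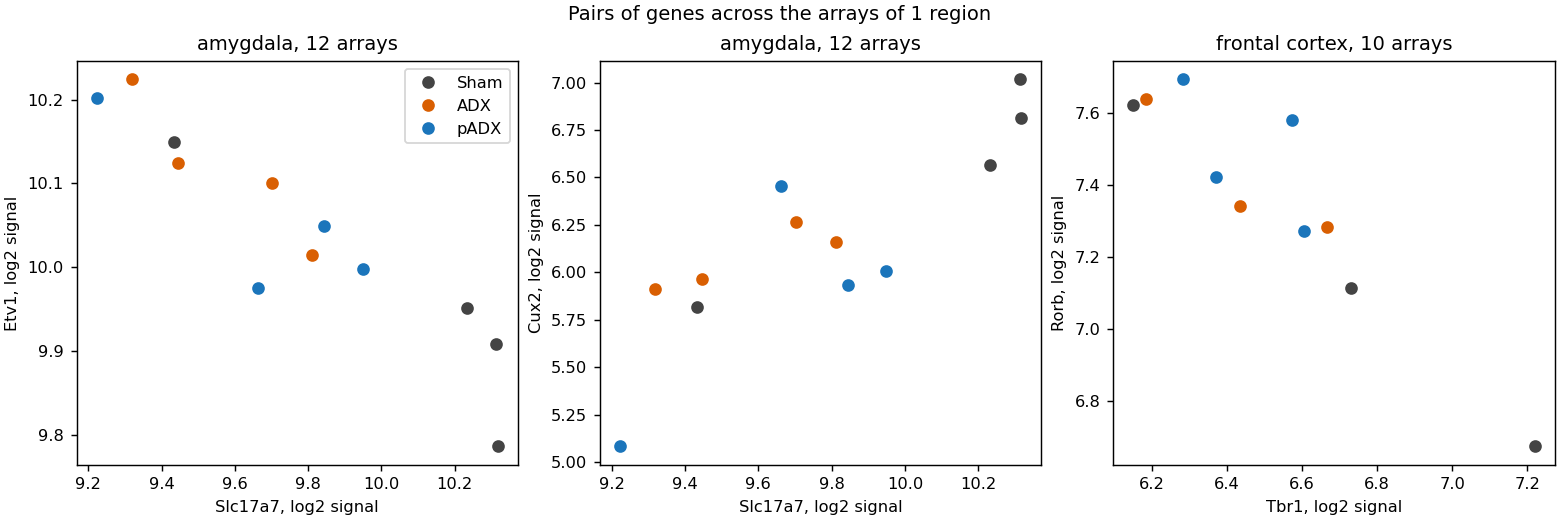
Log2 signals of Slc17a7 with Etv1 and of Slc17a7 with Cux2 in amygdala (12 arrays), and of Tbr1 with Rorb in frontal cortex (10 arrays). Each point is 1 array, coloured by treatment, with 1 gene on each axis. Etv1 falls from left to right as Slc17a7 rises in amygdala (r = -0.92), and Rorb falls as Tbr1 rises in frontal cortex (r = -0.93).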

How the data were processed

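Total RNA of 7 rat brain regions was measured on arrays with 31099 probe sets. Each deposited value is a probe set's linear intensity on 1 array, as the distribution shows. The authors' software and scaling were not given in the sources used here. Values were quantile normalized over the 82 arrays (limma 3.58.1, R 4.3.3), floored at 16 and log2 transformed, with 27.5% of values then at the floor. No filter was applied, and 57 control probe sets were dropped. Of the 31042 others, 20826 carried 1 symbol, 436 several and 9780 none, and 20758 matched RefSeq genes of GRCr8.

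Groups were read from titles. For septum, dorsal raphe, locus coeruleus and hypothalamus, the source name disagrees with the region code later in the title (S, DR, LC or Hypo). Their titles also open with another region, frontal cortex or left hippocampi, and the code was used. Regions were compared by lmFit and eBayes (trend) over 80 arrays with the 12 combinations of treatment, time and replicate as a block, and treatments with time of day as a term, over 12 units or within regions. The threshold was 0.05 after Benjamini-Hochberg adjustment over all 31042, and region pairs were adjusted per pair. For each gene the 3 most similar profiles were named. The genes, lists and tests were chosen with earlier results of these data known. Alternatives were other scalings, floors of 8 and 32, a filter, the block, and subsets of arrays. The tests were tested on simulated data. No pair of arrays held identical values (0 found), and the number of arrays limits the precision. Correlations used Python 3.11.15 and scipy 1.17.1.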

Additional observations from a re-analysis of the deposited data

Results flagged for a closer look

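In 13 of 170 groups of arrays 1 value stood far from the others by Dixon's test, where chance gives about 1 in 20. In 3 of them the other arrays were at the floor of 4, all for Fezf2. These were hypothalamus Sham, where PM replicate 2 stood at 4.63, hypothalamus ADX, where AM replicate 1 stood at 4.29, and dorsal raphe pADX, where PM replicate 1 stood at 4.24.

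Several of the others lay in septum. Cux2 in septum Sham stood at 6.51 in PM replicate 1 against 5.56 to 5.72 in the others, and in the same array Rorb was lowest, at 6.24 against 6.75 to 6.85. Rorb in septum pADX was lowest in AM replicate 2, at 6.32 against 6.72 to 6.77, and Rasgrf2 in septum pADX was highest in PM replicate 1, at 6.95 against 6.42 to 6.49.

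Neurod6 had a value apart in 3 groups. In frontal cortex Sham PM replicate 2 was lowest of the 10 arrays, at 9.20 against 9.68 to 10.08. In frontal cortex pADX, AM replicate 1 was highest, at 10.08 against 9.90 to 9.92, and in amygdala ADX, PM replicate 2 was lowest, at 8.85 against 9.33 to 9.35. Rasgrf2 in hippocampus ADX was highest in PM replicate 1, at 7.84 against 7.19 to 7.27. Etv1 in locus coeruleus ADX was lowest in PM replicate 1, at 8.92 against 9.09 to 9.11. Over the units of 5 regions, Cux2 in pADX was lowest in AM replicate 1, at 5.41 against 5.63 to 5.66.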

How the results depend on the processing

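Of 172 region differences of leading probe sets under the alternatives, 168 kept direction and call, and 402 of 409 counts of calls stayed within 1.5 times. Of 640 treatment or time differences, 66 changed sign, 63 of them without a call, and 2 passed with their sign kept. Of 14 correlations recomputed with a test, 7 kept their call and 7 missed the threshold, and of 35 recomputed without one, 1 changed sign. As deposited, hippocampus minus frontal cortex turned to -0.081 for Neurod6 and -0.64 for Rasgrf2. In that setting 9 of 19 member probe sets passed for ADX against Sham and 1 for ADX against pADX. There were also 4 of 133 for ADX against Sham within a region and 1 for the interaction. The share of all probe sets was not counted for these calls. Of the 9, the leading probe sets of Rorb (-0.24), Lmo4 (-0.24) and Etv1 (-0.21) reversed their sign, when the median of all probe sets was -0.21. Etv1 with Cux2 in amygdala turned to an r of 0.063 with another Etv1 probe set. With the Sham arrays alone, 13 of 24 pairs among frontal cortex, septum and amygdala passed, and the share of all probe sets was not counted. The causes were not tested. Leaving out 1 combination of treatment, time and replicate at a time, over all regions, gave 128 to 135 region pairs and 19 to 22 of 24. Leaving out 1 array at a time gave 0 to 1 calls for pADX against Sham within a region. The 1 arose without frontal cortex Sham PM replicate 1, and 1 without hippocampus pADX PM replicate 2. Floors of 8 and 32 gave 135 and 125 region pairs. A replicate block gave 0 calls for each treatment and time comparison, and no replicate block gave 133 region pairs. Replicate numbers did not pair the units, with correlations of same-numbered units from -0.07 to 0.06.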

Other observations

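The 2 frontal cortex arrays without a treatment differed from each other in Tbr1, with 5.22 and 6.88, while Fezf2 stood at 7.54 and 7.87, Neurod6 at 9.86 and 10.10, Cux2 at 7.77 and 7.17, Rorb at 7.51 and 7.14, and Etv1 at 9.59 and 9.74. Lmo4 stood at 12.32 and 12.25 and Rasgrf2 at 7.39 and 7.63. The value of 5.22 for Tbr1 lay below all 10 grouped frontal cortex arrays, and those of Neurod6 and Fezf2 in the same array lay within their range.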
